A study of Homo sapiens with 36 samples.

Results

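The genes described here were 9 of the 60591 genes counted in mRNA sequencing of the human colorectal lines Caco-2 and HT-29, chosen by symbol: the carbonic anhydrases CA2, CA4, CA9, CA12 and CA13, the monocarboxylate transporters SLC16A1 (MCT1) and SLC16A3 (MCT4), their chaperone BSG, and the sodium bicarbonate cotransporter SLC4A4. Each line was a control, a CoCl2 and an OD group of 3 biological replicates, which made 6 groups and 18 libraries. CoCl2 (cobalt chloride, 300 µM) and OD (an oxyquinoline derivative known by a catalogue code, 5 µM) were each given for 24 h as chemical activators of hypoxia signalling. The OD was dissolved in DMSO, and the control wells received the same 0.5 µl of DMSO per ml of medium, although their labels read as untreated. For CoCl2 the labels name a stock in water. The methods of the study, which cover Caco-2, add that DMSO was present in the CoCl2 medium as well, at a share that does not match the labels, so the amount of DMSO in each group is uncertain. Caco-2 cultures were kept for 21 days under differentiating conditions and HT-29 cultures were not described as differentiated, so the line and the culture state cannot be told apart. Both are carcinoma lines, so each group is 1 immortal line and not intestinal tissue.

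Carbonic anhydrases interconvert carbon dioxide and bicarbonate. CA2 and CA13 are cytosolic enzymes, whereas CA4, CA9 and CA12 are held at the plasma membrane with their active sites facing outwards. Cells that make lactate by glycolysis export it together with a proton through MCT1 and MCT4, which need BSG (basigin) to reach the cell surface, and SLC4A4 carries bicarbonate across the membrane to buffer the cytosol. CA9 and SLC16A3 are textbook targets of the hypoxia-inducible factors, which bind DNA at a short core whose letters are ACGTG or GCGTG.

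The promoters of 5 of the 9 genes were found in a RefSeq promoter table (GRCh38.p14), namely CA9, CA12, SLC16A3, BSG and SLC4A4. CA2, CA4, CA13 and SLC16A1 were not matched. The 250 bases before each start site were searched on both strands for ACGTG and for GCGTG. Over all 35116 promoters of the table, 18.5% held ACGTG, 32.2% held GCGTG and 43.2% held at least 1 of them, so a match by itself was common. The stretches below run 5′ to 3′ on the gene's own strand, with the matched letters in capitals on either strand, and they are shown because these 4 genes held a match while responding to different degrees.
CA9, 100 bases up to its start site, chr9:35673828-35673927, plus strand: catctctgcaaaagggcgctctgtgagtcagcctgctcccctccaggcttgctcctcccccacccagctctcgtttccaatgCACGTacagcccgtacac
SLC16A3, 100 bases up to the second of its listed start sites, chr17:82228942-82229041, plus strand: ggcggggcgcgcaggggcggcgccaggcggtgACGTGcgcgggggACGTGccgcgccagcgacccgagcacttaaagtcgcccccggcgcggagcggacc
CA12, 250 bases up to its start site, chr15:63381847-63382096, minus strand: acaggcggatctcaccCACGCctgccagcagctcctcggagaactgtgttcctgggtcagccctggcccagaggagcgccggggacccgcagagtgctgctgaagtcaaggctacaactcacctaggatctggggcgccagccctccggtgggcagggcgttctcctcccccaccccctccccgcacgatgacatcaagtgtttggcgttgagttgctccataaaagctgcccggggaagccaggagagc
BSG, 200 bases up to the second of its listed start sites, chr19:572396-572595, plus strand: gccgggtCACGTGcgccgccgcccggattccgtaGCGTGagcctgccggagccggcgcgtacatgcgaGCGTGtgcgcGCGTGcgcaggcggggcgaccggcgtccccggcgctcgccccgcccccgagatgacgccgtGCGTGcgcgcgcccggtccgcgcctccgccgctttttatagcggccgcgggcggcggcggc

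CA9 held 1 match, ACGTG on the opposite strand, whose leftmost base on the gene's strand lies at -18 from the start. SLC16A3 had 5 listed start sites, and the second carried 2 copies of ACGTG at -68 and -55, the fourth 3 copies of GCGTG at -216, -89 and -22, and the fifth 1 GCGTG at -165. CA12 held 1 GCGTG on the opposite strand, at -234. The second BSG start held 6 matches in 200 bases, of which 2 were the same palindromic CACGTG read on either strand, and SLC4A4 held none of these letters before any of its 5 start sites. Counts per gene do not tell which start site was used, and no protein binding was measured.

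The libraries held 12925719 to 22332639 counts. Levels are given as CPM, counts relative to the library total after scaling each library within its line by the TMM factor of edgeR, and as RPKM, which also divides by gene length, wherever genes are compared with each other. Differences were tested with the quasi-likelihood test of edgeR on all genes that passed its filter on low counts, and FDR is the Benjamini-Hochberg adjusted p over those genes. "Rose" and "fell" are used for an FDR under 0.05, and "called" for an FDR under 0.05 together with an absolute log2 fold change above 1. Of 11 intestinal epithelial markers, all were counted in both lines, with ALPI at 314 to 386 counts in Caco-2 controls and at 0 to 1 in HT-29 controls. The summed level of those markers was 5507 to 5760 CPM in Caco-2 controls against 7310 to 7790 (CoCl2) and 7060 to 7506 (OD). In HT-29 these sums were 3776 to 3899, 5251 to 5432 and 5209 to 5638 CPM in the same order. These sums hide single markers that moved the other way: with CoCl2 in HT-29, 1 of 10 tested markers was called higher and 4 lower, among them VIL1 (-2.62 on the log2 scale) and CDX2 (-1.46), and in Caco-2 SI was called lower with CoCl2 (-1.33). The 4 goblet markers summed to 77.7 to 84.3 CPM in HT-29 controls and to 31.7 to 42.2 with CoCl2, and 8 stromal and immune markers stayed at 2.61 to 7.28 CPM in all HT-29 libraries and at 27.9 to 47.1 in Caco-2, where COL1A1 led them with 363 to 405 counts in controls. The part of these shifts in the results was not tested.

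SLC16A3 had the highest fold change of the tested genes in 3 of the 4 comparisons of an agent with control, and in HT-29 with OD the highest was that of CA9. In HT-29 the membrane-bound enzymes CA9 and CA12 rose with both agents, whereas in Caco-2 CA9 stayed at the edge of detection and CA12 rose with OD but did not pass the test with CoCl2. The bicarbonate carrier SLC4A4 fell in HT-29, and CA2 fell in Caco-2 with CoCl2. Of the 7 genes tested in Caco-2, 2 were called with CoCl2, where 23.4% of all tested genes were called, and 1 with OD, where 11.7% were. Of the 8 tested in HT-29, 4 were called with CoCl2 and 2 with OD, beside 41.3% and 17.1% of all genes. These shares lie close to the background of each comparison, so the group as a whole did not stand apart, and the values of its single genes follow. By FDR alone, 5 of 7 genes passed with CoCl2 in Caco-2 (64.7% of all genes), 5 of 7 with OD (50.4%), 8 of 8 with CoCl2 in HT-29 (82.8%) and 7 of 8 with OD (68.8%).

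**Figure D1:**
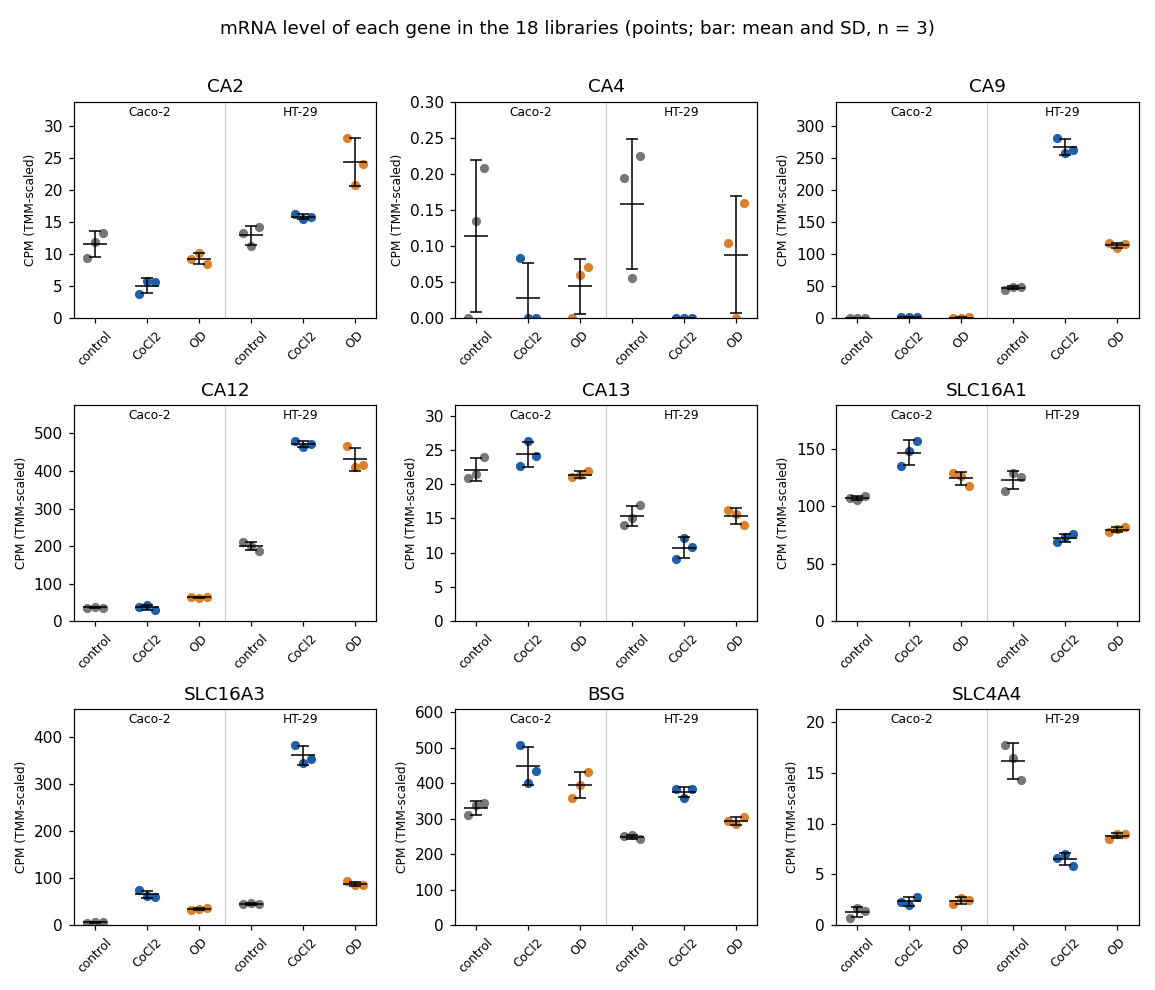
Level of each of the 9 genes in the 18 libraries, in CPM on linear axes from 0 (each panel has its own scale); points are libraries and black bars the mean and SD of 3. CA9 and SLC16A3 reach their highest levels in HT-29 with CoCl2, at 259 to 282 and 345 to 383 CPM, while CA4 reaches at most 0.225 CPM.

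CA9 (ENSG00000107159.14, chromosome 9, 35673928 to 35681159, plus strand, GRCh38) encodes a carbonic anhydrase that faces the extracellular space. In HT-29 controls the 3 libraries held 683, 876 and 1290 counts, which came to 46.7 ± 2.37 CPM (SD, n = 3). With CoCl2 the values were 282, 259 and 262 CPM, and with OD they were 117, 109 and 115 CPM. No group overlapped another, and the order was CoCl2, OD and control. In bulk libraries, more cells that express a gene and more RNA per cell cannot be told apart. The log2 fold change was 2.51 ± 0.05 (SE, FDR 3.7e-24) with CoCl2 and 1.28 ± 0.05 (FDR 4.5e-17) with OD.

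In Caco-2 the same gene was nearly silent. Its counts were 0, 0 and 0 in control libraries, 6, 7 and 15 with CoCl2, and 4, 0 and 7 with OD. The 95% Poisson interval of the largest count, 15, ran from 8.4 to 24.7, and that of a count of 0 reached 3.69, which covers counting error only. Against a floor set at 3 counts per control library, the mean with CoCl2 (0.606 CPM) was 2.92-fold the highest floor. The mean with OD (0.254 CPM, 1 library at 0) was 1.22-fold that floor, and the OD libraries overlapped the controls. The floor lies under the 3.69 counts that a count of 0 allows, so these values are not smallest possible rises. The gene did not pass the filter in that line. Without the filter, edgeR gave an FDR of 1.0e-05 with CoCl2 and 0.0050 with OD, and DESeq2 gave 0.00052 and 0.013, on fold changes that rest on controls at 0 and are not given as sizes. The mean of the HT-29 controls, on the scale fitted over both lines, was 239-fold the highest such floor of the Caco-2 controls.

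The start of the CA9 locus overlaps ARHGEF39 on the other strand, and whether the counting used strand is not given in the sources used here. ARHGEF39 had 229 to 266 counts in the Caco-2 controls in which CA9 had none. It fell where CA9 rose, by 1.73 on the log2 scale with CoCl2 in HT-29 (FDR 1.1e-14) and by 0.63 with OD (FDR 2.4e-07), so the 2 genes did not share a direction.

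CA12 (ENSG00000074410.14, chromosome 15, 63321378 to 63381846, minus strand), also a membrane enzyme with its active site outside, was abundant in HT-29. Control libraries held 210, 200 and 188 CPM, CoCl2 libraries 479, 464 and 471, and OD libraries 467, 412 and 416. Both treated groups lay above all controls and overlapped each other. CA12 was called with CoCl2 (log2 fold change 1.24 ± 0.05, FDR 5.8e-18) and with OD (1.11 ± 0.05, FDR 2.3e-16). With libraries scaled by their totals alone the values were 0.61 and 0.98, under the fold limit in both cases.

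In Caco-2, CA12 stood at 36.8, 38.0 and 36.5 CPM in controls. It held 38.5, 44.5 and 31.2 CPM with CoCl2 and 63.9, 62.1 and 65.2 CPM with OD. The CoCl2 libraries scattered around the controls, whereas the OD libraries were all higher than both. The log2 fold change was 0.03 ± 0.10 with CoCl2 (95% interval -0.17 to 0.23, FDR 0.80, and -0.29 with library totals alone) and 0.78 ± 0.10 with OD (FDR 5.7e-07). CA12 thus rose with OD and not detectably with CoCl2 in Caco-2, and the difference between the agents itself passed the test (-0.75 ± 0.10, CoCl2 against OD, FDR 1.1e-06).

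CA2 (ENSG00000104267.10) is a cytosolic carbonic anhydrase of intestinal epithelium. In Caco-2 controls it held 9.41, 11.9 and 13.3 CPM, with CoCl2 3.66, 5.73 and 5.62 CPM, and with OD 9.13, 10.2 and 8.45 CPM. The CoCl2 group lay wholly under the other groups, while OD and control overlapped. CA2 was called lower with CoCl2 (log2 fold change -1.18 ± 0.17, FDR 2.2e-06) and did not pass the test with OD (-0.31 ± 0.16, FDR 0.11).

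HT-29 gave another pattern for CA2. Control libraries held 13.3, 11.3 and 14.2 CPM, CoCl2 libraries 16.3, 15.5 and 15.7, and OD libraries 28.2, 20.8 and 24.1. The OD group was the highest, without overlap, and its log2 fold change of 0.91 ± 0.10 (FDR 5.2e-09) was under the fold limit. With CoCl2 it was 0.28 ± 0.11 (FDR 0.021), a direction that flipped to -0.35 with library totals alone. The gene overlaps CA3-AS1 on the other strand, which had at most 17 counts in any library.

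CA13 (ENSG00000185015.8), a second cytosolic form, varied little in Caco-2. Caco-2 libraries held 20.9 to 24.0 CPM as controls, 22.6 to 26.3 with CoCl2 and 21.0 to 21.9 with OD. Both treated ranges overlapped that of the controls. The log2 fold change was 0.14 ± 0.10 with CoCl2 (FDR 0.24, and -0.18 with library totals alone) and -0.05 ± 0.10 with OD (FDR 0.73). In HT-29 the values were 14.1, 15.0 and 16.9 CPM in controls and 9.10, 12.2 and 10.9 CPM in the CoCl2 libraries, beside a mean of 15.3 ± 1.14 (SD) in the OD libraries, which overlapped the controls. CA13 fell with CoCl2 without overlap (-0.53 ± 0.11, FDR 5.7e-05, and -1.16 with library totals alone). It did not pass the test with OD (-0.02 ± 0.09, FDR 0.88).

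CA4 (ENSG00000167434.10, chromosome 17, 60149942 to 60170899, plus strand), a lipid-anchored enzyme of the apical membrane, had 0 to 6 counts in every library and did not pass the filter in any comparison. Its counts were 3, 1 and 6 in HT-29 controls and 0 in each of the 3 HT-29 CoCl2 libraries, so these groups did not overlap. For that comparison CA4 had an FDR of 0.016 in edgeR without the filter and of 0.078 in DESeq2, and its FDR without the filter was 0.10 or more in every other comparison.

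SLC16A3 (ENSG00000141526.18, chromosome 17, 82217934 to 82261129, plus strand) encodes MCT4, the transporter through which glycolytic cells release lactate. In Caco-2 the controls held 4.41, 6.29 and 6.22 CPM. With CoCl2 the libraries held 74.0, 62.5 and 58.5 CPM, and with OD 32.4, 33.1 and 36.6 CPM. No 2 groups overlapped. SLC16A3 was called with CoCl2 (log2 fold change 3.53 ± 0.13, 11.6-fold, FDR 3.0e-17) and with OD (2.60 ± 0.13, 6.06-fold, FDR 5.8e-14).

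HT-29 started from a higher level of SLC16A3. Its controls held 43.7, 47.4 and 44.5 CPM, above the OD libraries of Caco-2. With CoCl2 the values were 383, 345 and 353 CPM, and with OD they were 92.6, 84.2 and 83.9 CPM. The 3 groups were again separate. The log2 fold change was 2.99 ± 0.06 (7.96-fold, FDR 2.6e-25) with CoCl2 and 0.94 ± 0.06 (1.92-fold, FDR 8.7e-14) with OD, the latter just under the fold limit. SLC16A3 overlaps CSNK1D on the other strand, a kinase gene with log2 fold changes of 0.88 and 0.39 (CoCl2 and OD) in HT-29 and of 0.08 and 0.21 in Caco-2.

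SLC16A1 (ENSG00000155380.13, chromosome 1, 112911847 to 112957593, minus strand), which encodes the widely expressed MCT1, had higher levels with the agents in Caco-2 and lower levels in HT-29. In Caco-2 the controls held 107, 106 and 109 CPM, the CoCl2 libraries 135, 149 and 157, and the OD libraries 129, 126 and 118. Both treated groups lay above the controls, with log2 fold changes of 0.45 ± 0.08 (FDR 1.3e-05) and 0.21 ± 0.08 (FDR 0.022). With library totals alone these were 0.13 (FDR 0.11) and 0.056 (FDR 0.53), so the rise of SLC16A1 in Caco-2 did not pass the test under that scaling. In HT-29 the controls held 114, 129 and 126 CPM, the CoCl2 libraries 69.1, 73.6 and 75.8, and the OD libraries 77.4, 80.4 and 82.0. Every treated library was below every control, and SLC16A1 fell by 0.76 ± 0.06 on the log2 scale with CoCl2 (FDR 9.7e-13) and by 0.62 ± 0.05 with OD (FDR 7.1e-11).

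None of the 4 changes of SLC16A1 reached the fold limit, except that under library totals alone the fall with CoCl2 in HT-29 reached -1.39. The antisense gene SLC16A1-AS1, whose locus overlaps it, went from 113 to 168 counts in HT-29 controls to 7 to 13 with CoCl2 (log2 fold change -3.12 ± 0.21, FDR 1.5e-13). With OD it held 85 to 103 counts (-0.44 ± 0.13, FDR 0.0041). In Caco-2, SLC16A1-AS1 held 25 to 81 counts over all libraries and passed no test (FDR 0.13 and 0.85).

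The ratio of SLC16A3 to SLC16A1 within a library does not depend on how libraries are scaled. Per length, SLC16A3 stood at 0.0297 of SLC16A1 in Caco-2 controls (geometric mean of RPKM ratios, range 0.0236 to 0.0340), at 0.253 with CoCl2 (0.214 to 0.314) and at 0.157 with OD (0.144 to 0.177). In HT-29 it stood at 0.211 in controls (0.202 to 0.220), at 2.83 with CoCl2 (2.67 to 3.18) and at 0.623 with OD (0.587 to 0.685). Among the 6 groups, MCT4 transcript exceeded MCT1 transcript per length only in HT-29 with CoCl2. Without division by length, SLC16A3 also exceeded SLC16A1 in HT-29 with OD (means of 86.9 and 79.9 CPM). Where the ratio crosses 1 thus depends on the gene lengths used for RPKM. The ratio was 8.52-fold and 5.27-fold higher with CoCl2 and OD in Caco-2, and 13.4-fold and 2.95-fold higher in HT-29. No treated library overlapped a control, and the two-sided exact permutation test gave p = 0.1 in each case (0.12 adjusted over 6 tests), the smallest that 3 libraries against 3 allow.

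**Figure D2:**
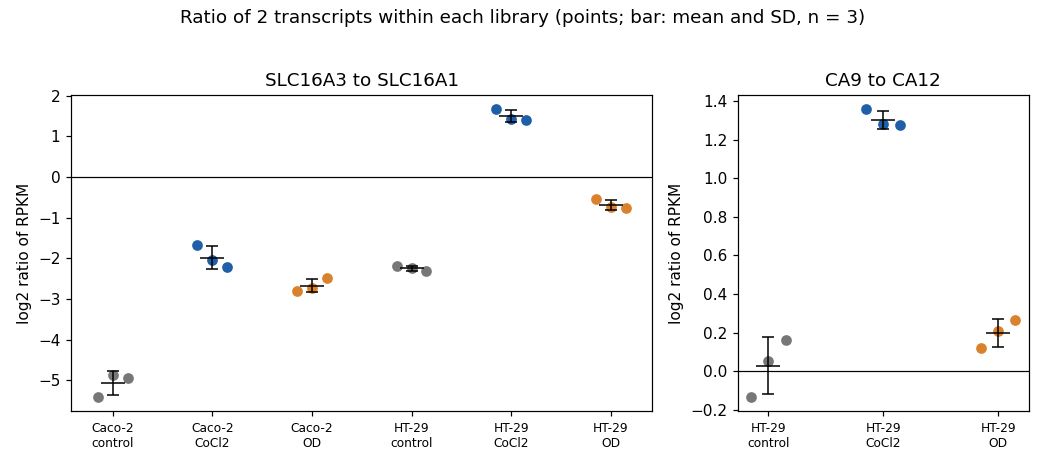
Ratio of SLC16A3 to SLC16A1 (left) and of CA9 to CA12 (right, HT-29 only) within each library, as log2 of RPKM ratios; points are libraries, bars the mean and SD of 3, and the line at 0 marks equal levels per length. The first ratio crosses that line only in HT-29 with CoCl2, and the second leaves it mainly there. The place of the line relative to the points depends on the gene lengths used for RPKM.

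CA9 and CA12 were about equal per length in HT-29 controls, with a ratio of 1.02 (0.913 to 1.12). With CoCl2 the ratio was 2.47 (2.42 to 2.56), above every control library (p = 0.1, exact permutation, the smallest possible). With OD it was 1.15 (1.09 to 1.20), which overlapped the controls (p = 0.2, exact permutation). The excess of CA9 over CA12 was thus present in all 3 CoCl2 libraries and was not separable from the controls with OD.

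BSG (ENSG00000172270.22, chromosome 19, 571277 to 583494, plus strand), the chaperone of both lactate transporters, was the most abundant of the 9 transcripts per length in Caco-2, at 89.0 ± 4.94 RPKM in controls (SD, n = 3). Its libraries held 309, 337 and 344 CPM as controls, 508, 402 and 435 with CoCl2, and 358, 394 and 432 with OD. Both treated groups were higher than the controls and overlapped each other, with log2 fold changes of 0.44 ± 0.09 (FDR 9.6e-05) and 0.26 ± 0.09 (FDR 0.016). With library totals alone the values of BSG were 0.12 (CoCl2, FDR 0.23) and 0.11 (OD, FDR 0.33), and neither passed the test. In HT-29 BSG held 250, 253 and 243 CPM in controls, 383, 359 and 382 with CoCl2, and 293, 284 and 305 with OD. The groups were separate, with log2 fold changes of 0.59 ± 0.05 (FDR 4.4e-12) and 0.24 ± 0.05 (FDR 4.6e-05), but with library totals alone the CoCl2 value in HT-29 was -0.04. Its fold changes were smaller than those of its partner SLC16A3 in all 4 comparisons, a contrast between genes that was not tested.

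SLC4A4 (ENSG00000080493.19, chromosome 4, 71062667 to 71572087, plus strand) also changed in opposite directions in the 2 lines. In HT-29 the controls held 17.8, 16.5 and 14.3 CPM, the CoCl2 libraries 6.64, 6.98 and 5.84, and the OD libraries 8.52, 8.95 and 8.98. The groups did not overlap. SLC4A4 was called lower with CoCl2 (-1.30 ± 0.11, FDR 3.3e-11), and it fell with OD under the fold limit (-0.86 ± 0.10, FDR 1.9e-08).

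In Caco-2, SLC4A4 was scarce, with 12, 25 and 20 counts in controls, 27, 27 and 52 with CoCl2, and 31, 45 and 35 with OD. The means were 1.25 ± 0.50, 2.34 ± 0.43 and 2.42 ± 0.31 CPM (SD, n = 3). The treated libraries were all above the controls, and the log2 fold changes were 0.94 ± 0.31 (FDR 0.011) and 0.97 ± 0.31 (FDR 0.011). Control library 1 carried much of both: without it they were 0.62 (FDR 0.097) and 0.66 (FDR 0.098). Without CoCl2 library 3 the first was 0.77 (FDR 0.067), and with library totals alone it was 0.61 (FDR 0.086).

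**Figure D3:**
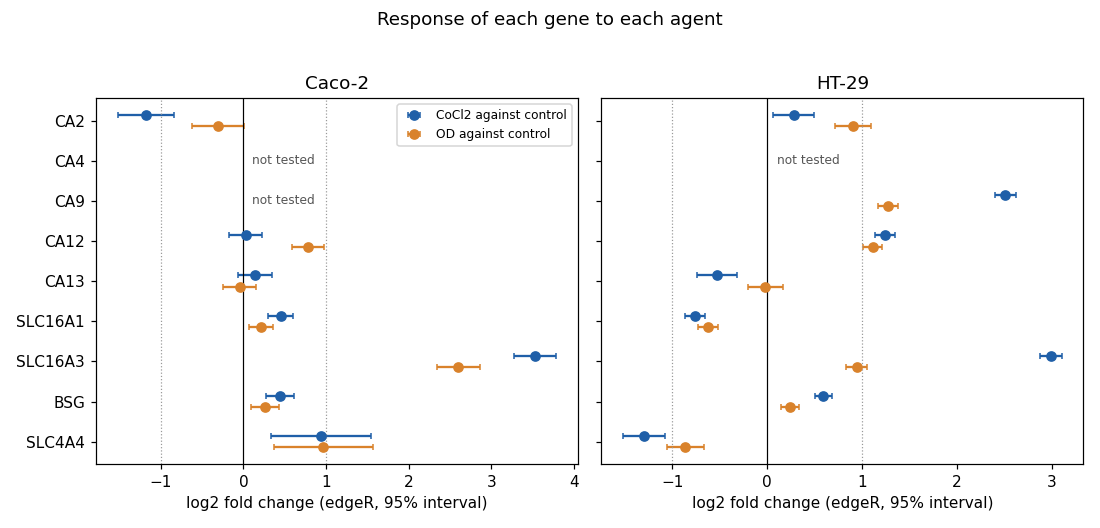
Log2 fold change of each gene against control from edgeR, for CoCl2 (blue) and OD (orange) in Caco-2 and HT-29. Bars are 95% intervals taken from the SE by a normal approximation, which tends to be too narrow with few libraries. Dotted lines mark the limit of 1 in either direction, and genes with too few counts are written as not tested. SLC16A3 lies farthest to the right in Caco-2 at 3.53 and 2.60. SLC16A1, SLC4A4 and CA2 have points on opposite sides of 0 in the 2 lines, and CA13 does with CoCl2 (0.14 in Caco-2 and -0.53 in HT-29).

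The 2 agents were also set against each other at their single doses. In Caco-2 none of the 7 genes was called (11.7% of all genes were) and 4 of 7 passed by FDR alone (49.6% of all genes). Those 4 were SLC16A3 (0.93 ± 0.11, FDR 9.8e-08) and SLC16A1 (0.24 ± 0.07, FDR 0.0099), higher with CoCl2, and CA2 (-0.87 ± 0.18, FDR 0.00024) and CA12, higher with OD. In HT-29, 2 of 8 were called, beside 29.9% of all genes, and 8 of 8 passed by FDR alone, beside 77.7%. SLC16A3 was 4.14-fold higher with CoCl2 than with OD (log2 difference 2.05 ± 0.05, FDR 5.4e-22) and CA9 2.35-fold higher (1.23 ± 0.05, FDR 8.7e-18). The CA9 difference was 0.74 with library totals alone, under the limit. CA12 differed by 0.13 ± 0.05 (95% interval 0.03 to 0.23) and turned to -0.37 with library totals alone, so its order between the agents in HT-29 depended on the scaling, as did that of BSG (0.35 ± 0.05, and -0.15 with library totals alone).

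Before any agent, the lines already differed. Of 8 genes tested between the controls, 4 were called (45.8% of all genes were) and 7 passed by FDR alone (79.1%). CA9, counted in both, passed the filter through HT-29 alone. HT-29 held more CA9, as given above, and more SLC4A4 (13.9-fold, log2 3.79 ± 0.18, FDR 2.0e-19), SLC16A3 (8.60-fold, 3.10 ± 0.11, FDR 3.6e-23) and CA12 (5.71-fold, 2.51 ± 0.08, FDR 3.1e-24). SLC16A1 was 0.28 ± 0.07 higher in HT-29 on the log2 scale, BSG -0.32 ± 0.07 and CA13 -0.42 ± 0.10 lower, and CA2 did not pass the test (0.27 ± 0.13, FDR 0.069). Per length, the leading transcripts were BSG and SLC16A1 in Caco-2 controls (89.0 and 21.3 RPKM) and BSG, CA9, CA12 and SLC16A1 in HT-29 controls (67.8, 30.0, 29.4 and 24.6). CA9 and CA12 did not differ beyond the spread of their 3 libraries there. With CoCl2 in HT-29, CA9 led at 161 ± 7.82 RPKM, before BSG at 95.8 ± 3.84, CA12 at 65.2 ± 1.22 and SLC16A3 at 38.8 ± 2.23.

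Whether a response differed between the lines was tested as an interaction over all 18 libraries, in which a positive value means a higher log2 fold change in HT-29. For CoCl2, 5 of 8 genes were called, beside 21.6% of all genes, and 7 passed by FDR alone, beside 49.8%. For OD, 4 of 8 were called, beside 15.2%, and 6 passed by FDR alone, beside 42.9%. CA9 is among the called genes in both, but it passed the filter over 18 libraries through its HT-29 counts alone. Its calls are therefore not read as a difference in response. The CA9 value rests on Caco-2 controls at 0 counts and is not given as a size. For OD the CA9 call was lost when Caco-2 control library 1, 2 or 3 or OD library 1 or 3 was left out, with an FDR of up to 0.11. With CoCl2 the response of SLC4A4 differed by -2.36 ± 0.29 (FDR 2.0e-08), that of SLC16A1 by -1.32 ± 0.09 (FDR 1.3e-13), that of CA2 by 1.35 ± 0.21 (FDR 1.6e-06) and that of CA12 by 1.11 ± 0.11 (FDR 6.1e-10). With OD it differed by -1.86 ± 0.28 for SLC4A4 (FDR 1.5e-06), by -1.68 ± 0.14 for SLC16A3 (FDR 1.5e-11) and by 1.20 ± 0.19 for CA2 (FDR 3.3e-06). By FDR alone, the CoCl2 responses of CA13 (-0.78 ± 0.15, FDR 4.8e-05) and SLC16A3 (-0.65 ± 0.14, FDR 0.00027) also differed. The responses of BSG did not pass the test in either case (0.04 ± 0.10 and -0.03 ± 0.10, FDR 0.77 and 0.85). A smaller fold of SLC16A3 in HT-29 sat on a higher start: its CoCl2 level there was still 345 to 383 CPM against 58.5 to 74.0 in Caco-2, each scaled within its line.

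How libraries were scaled mattered most for CoCl2 in HT-29. TMM factors were 0.765 to 0.774 in those libraries and 1.19 to 1.20 in the controls, and dropping them moved the median of all genes by -0.63. In the other comparisons with control the shift was -0.32 (CoCl2, Caco-2), -0.15 (OD, Caco-2) and -0.14 (OD, HT-29). Under either scaling, SLC16A3 and CA9 were the genes with the highest values in HT-29 with CoCl2 and SLC4A4 the one with the lowest, with 2.36, 1.88 and -1.93 under library totals alone. CA2 and BSG changed sign there, and SLC16A1 and CA13 passed the fold limit as lower (-1.39 and -1.16).

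**Figure D4:**
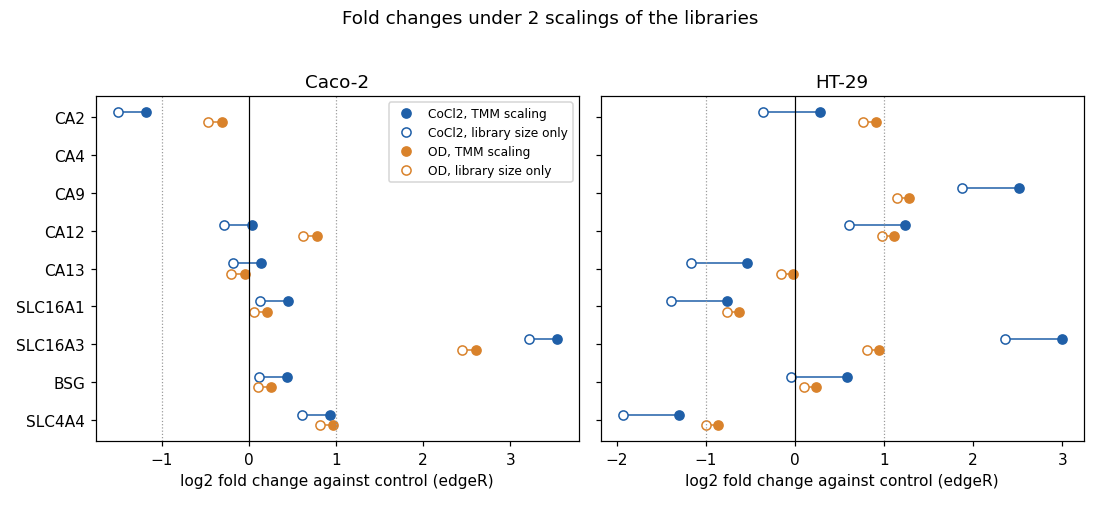
Log2 fold change of each gene against control with TMM scaling (filled points) and with library totals alone (open points), for CoCl2 (blue) and OD (orange); lines join the 2 values of a gene and dotted lines mark the limit of 1. The open points lie to the left throughout, by most for CoCl2 in HT-29, where CA2 and BSG cross 0.

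Other genes of acid handling were counted from lists chosen with earlier results of these data known. Lactate dehydrogenase A (LDHA), which makes lactate from pyruvate, rose in all 4 comparisons with control, by 2.75 ± 0.09 (CoCl2) and 2.51 ± 0.08 (OD) on the log2 scale in Caco-2 and by 3.18 ± 0.06 and 1.01 ± 0.06 in HT-29. LDHD, which uses D-lactate, fell in Caco-2 (-2.49 ± 0.15 and -1.54 ± 0.14). Of 7 other monocarboxylate transport genes, 4 passed the filter within a line, and none was called higher. With CoCl2, 3 of 4 were called lower in each line, beside 23.4% (Caco-2) and 41.3% (HT-29) of all genes called in either direction. Most of these calls rest on low counts. In Caco-2 none of the called genes had a mean of 100 counts or more, and in HT-29 only SLC16A7 did. DESeq2 called 2 lower in Caco-2 and 3 in HT-29. SLC16A7, which encodes the high-affinity transporter MCT2, fell in HT-29 by 2.62 ± 0.12 with CoCl2 and by 1.85 ± 0.10 with OD, in contrast to the rise of SLC16A3.

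The proton pump list, mainly subunits of the vacuolar ATPase that acidifies organelles, was tested in each line and between them. With CoCl2 in HT-29, 12 of 21 tested genes were called higher and 2 lower, beside 41.3% of all genes called and 2749 of 15812 called higher, with a median log2 fold change of 1.37 beside -0.03 over all genes, and with library totals alone 9 were higher and 2 lower. ATP6V0E1 (2.62 ± 0.05), ATP6V0D1 (2.06 ± 0.06) and ATP6V0B (2.04 ± 0.06) led among the genes with a mean of 100 counts or more. With OD in HT-29, 2 were higher and 2 lower of 21, beside 17.1% of all genes called, with TCIRG1 (1.37 ± 0.06) and ATP6V0D1 (1.33 ± 0.06) as the named ones. In Caco-2, none of 22 was called higher by edgeR and 2 were called lower with either agent. Of all genes, 23.4% (CoCl2) and 11.7% (OD) were called there. The medians of the list were 0.04 (CoCl2) and 0.03 (OD). By FDR alone 10 rose and 6 fell with CoCl2 (64.7% of all genes passed), and 6 rose and 3 fell with OD (50.4%). In the test of the difference between the lines, 7 of 24 proton pump genes were called with a higher response in HT-29 and 1 with a lower one for CoCl2, beside 21.6% of all genes called, and 4 and 0 for OD, beside 15.2%.

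The remaining lists were small and are given beside the shares of all genes called. These shares were 23.4% (Caco-2) and 41.3% (HT-29) with CoCl2, and 11.7% and 17.1% with OD. No list was tested against them. Of 9 tested sodium-proton exchange genes, 1 was called higher and 1 lower with CoCl2 in HT-29. The gene called higher was CHP1, a cofactor of these exchangers, which rose by 1.40 ± 0.05. With library totals alone, 0 were called higher and 2 lower there, so the CHP1 call was lost. With OD in HT-29, 1 was called higher. In Caco-2, 1 was called lower with CoCl2 and none with OD. By FDR alone, 4 rose and 2 fell with OD in Caco-2, where 50.4% of all genes passed. Of 13 other bicarbonate transporters, 8 passed the filter in Caco-2 and 5 did in HT-29. With CoCl2, 1 was called higher and 1 lower in Caco-2, and 1 higher in HT-29. With OD, 1 was called higher in Caco-2 and 2 in HT-29. SLC4A8, a sodium-driven chloride bicarbonate exchanger, was lower with CoCl2 in Caco-2 (-1.09 ± 0.12). SLC26A6, an apical anion exchanger, was higher with CoCl2 in HT-29 (1.15 ± 0.06). With library totals alone, 0 of these transporters were called higher there and 1 lower, so the SLC26A6 call was lost. Of 10 other carbonic anhydrases, 5 were tested in each line. With CoCl2, 1 was higher and 1 lower in each line, and with library totals alone 0 were higher and 1 lower in each. With OD none was called in Caco-2 (0 by FDR alone), and 1 was higher and 1 lower in HT-29.

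The genes whose profile over the 6 groups was most like that of SLC16A3 were the creatine transporter SLC6A8, the stress-induced mTORC1 inhibitor DDIT4, and RNF223. Likeness was the root mean square difference of centred group means on the log2 CPM scale over 17920 genes, and it was 0.31, 0.36 and 0.50 for these genes, beside an SD of 1.95 over the groups for SLC16A3 itself. For CA9 the nearest was the matrix metalloproteinase MMP7 at 0.62, against a profile SD of 4.83 that the difference between the lines sets. For CA12 it was DPY19L1 at 0.23 (SD 1.71) and for CA2 CDK20 at 0.14 (SD 0.79). SLC16A1, CA13 and BSG varied little over the groups (SD 0.40, 0.44 and 0.27), and their nearest genes, POLR1E, TBCCD1 and PPTC7, lay within 0.03, 0.05 and 0.04. The 6 points share libraries and scaling, and no test was made.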

How the data were processed

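Total RNA of 18 cultures (2 lines, 3 groups, 3 biological replicates each) was made into stranded poly(A) mRNA libraries and sequenced as single-end reads. Per the submitters' processing notes and the study's methods, the authors trimmed with cutadapt 2.10 and aligned with STAR 2.7.5b to GRCh38.p13. The deposited counts are raw whole-number counts per gene on GENCODE annotation; the counting tool and its strand setting are not given in the sources used here. The authors also deposited log2 RPKM values (log2 of RPKM plus 1, filtered on low values, without CA4 and with CA9 at 0 in Caco-2), from which RPKM was recovered for comparing genes per length. The miRNA tables were not used. Every per-sample mRNA column was mapped to a sample by its name.

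Counts were analysed in R 4.3.3 with edgeR 4.0.16 (filterByExpr, TMM, quasi-likelihood F test), within each line for the agents (9 libraries) and over all 18 libraries for the lines. Calls needed an FDR under 0.05 and an absolute log2 fold change above 1, as in the study. Replicates of a group differed by more than sampling noise, so none was counted as a duplicate. The members and lists were chosen with earlier results of these data known. Genes of the lists are named where called with a mean of at least 100 counts, at most 3 per list and comparison. Alternatives were library totals alone, DESeq2 size factors, DESeq2 1.42.0, limma 3.58.1 on the deposited log2 values, no filter, no fold limit, 1 fit over both lines, a replicate block, and each library left out. The tests were checked on simulated counts. Coordinates are from GENCODE on GRCh38.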

Additional observations from a re-analysis of the deposited data

Results flagged for a closer look

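In 7 cases the response of a gene differed between Caco-2 and HT-29 by a test of the difference itself (edgeR interaction over 18 libraries, HT-29 minus Caco-2 on the log2 scale, 3 libraries per group) and passed both thresholds. For CoCl2 these were SLC4A4 (-2.36), SLC16A1 (-1.32), CA2 (1.35) and CA12 (1.11), the last of which was 0.97 without Caco-2 CoCl2 library 3 and 0.90 with library totals alone, both under the fold limit. For OD they were SLC4A4 (-1.86), SLC16A3 (-1.68) and CA2 (1.20). The line and the 21 days of differentiation of Caco-2 cannot be told apart in these values.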

How the results depend on the processing

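Counts of called genes changed by over 1.5 times in the following cases, smaller changes being given after them where scaling or a tool made them. With CoCl2 in Caco-2 the 2 called genes became 1 with limma on the deposited log2 values, where CA2 was -0.99, and 5 with no fold limit. With OD in Caco-2 the 1 called gene became 2 with DESeq2, with no filter and with 1 fit over both lines, 5 with no fold limit, and 1 to 2 when a library was left out. The gene added with DESeq2 and with no filter was CA9, and that added when control library 2 or 3 or OD library 1 was left out was SLC4A4. With CoCl2 in HT-29, 4 became 8 with no fold limit. With OD in HT-29, 2 became 1 with library totals alone and 7 with no fold limit. Between the agents in Caco-2, 0 became 1 with library totals alone and with 1 fit over both lines, 4 with no fold limit, and 0 to 1 when a library was left out. Between the agents in HT-29, 2 became 8, and between the controls 4 became 7, both with no fold limit. Among smaller changes, with CoCl2 in HT-29 4 became 5 with library totals alone (2 higher and 3 lower, with CA12 lost and CA13 and SLC16A1 gained) and with no filter (CA4 gained), and 3 with limma, where SLC4A4 was lost. Between the agents in HT-29, 2 became 3 with library totals alone, where CA9 was lost and CA2 (-1.12) and CA13 (-1.01) were gained. For the line difference with CoCl2, 5 became 4 with library totals alone, where CA12 was lost. With CoCl2 in Caco-2, 2 became 3 with DESeq2, with no filter and with 1 fit over both lines.

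Of the fold changes of single genes, 24 changed sign, 12 lost a call, 46 gained one and 977 did neither. Of the gains, 33 came from dropping the fold limit, which can only add calls. Of the unchanged values, 481 came from fits that left out 1 library. Library totals alone turned, with CoCl2, CA12 (-0.29) and CA13 (-0.18) in Caco-2 and CA2 (-0.35) and BSG (-0.042) in HT-29, then CA12 (-0.37) and BSG (-0.15) between the agents in HT-29, and BSG between the lines (-0.16). CA12 with CoCl2 in Caco-2 was -0.012 and -0.016 with limma (pseudocounts 1 and 0.1). Leaving out a library turned values near 0, over the ranges -0.092 to 0.17 for CA12 with CoCl2 in Caco-2, -0.088 to 0.016 and -0.073 to 0.067 for CA13 with OD in Caco-2 and HT-29, -0.050 to 0.10 for CA13 between the lines with OD, -0.21 to 0.082 for SLC4A4 between the agents in Caco-2, and -0.032 to 0.14 (CoCl2) and -0.11 to 0.033 (OD) for BSG between the lines. SLC4A4 with CoCl2 in HT-29 was -0.74 with limma, which adds 1 to low RPKM. The cause of the other changes was not tested.

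Replicate numbers did not pair libraries: deviations of same-numbered libraries correlated by -0.04 to 0.05 in Caco-2 and -0.02 to 0.04 in HT-29. With the replicate block, no count of called members changed. Depth limited CA4 throughout and CA9 and SLC4A4 in Caco-2.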
